A study of Mus musculus with 6 samples.

Results

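The genes described here encode the matrix metalloproteinases (MMPs), the ADAMTS proteases and the tissue inhibitors of metalloproteinases (TIMPs). They were found by symbol among the 56393 genes of the count table as those named Mmp, Adamts or Timp followed by a number, with the letter a or b allowed after an Mmp number. This gave 46 genes, of which 23 were MMPs, 19 ADAMTS and 4 TIMPs. Their transcripts were counted by RNA sequencing of primary mouse VSMCs (vascular smooth muscle cells, which form the arterial media), with 3 wild-type (WT) libraries and 3 from cells knocked out for Nono (KO), the gene of a paraspeckle protein. All 6 libraries came from cells grown in DMEM with 20% fetal bovine serum and antibiotics, without further treatment. Strain, sex, age, the way the knockout was made and whether replicates were separate animals or cultures are not stated in the labels, so each p-value reflects the spread among these libraries alone, and that spread may be technical.

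MMPs are zinc-dependent endopeptidases that are made as inactive precursors and that together cut most proteins of the extracellular matrix. ADAMTS enzymes are secreted relatives that bind the matrix through thrombospondin repeats and trim proteoglycans, procollagens and microfibril proteins. TIMPs bind the active site of these enzymes and block them, and the balance of protease and inhibitor is known to govern remodelling of the arterial wall, smooth muscle migration and the breakdown of elastic fibres that accompanies medial calcification. The series is titled for vascular calcification and BMP2 transcription, and the comparison asks how the transcripts of this proteolytic system differ between KO and WT cells.

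Library totals lay between 56529170 and 61670083 counts. Nono, the targeted gene, was at 523, 502 and 519 CPM (counts scaled to a common library size with TMM) in the WT libraries and at 55.9, 54.8 and 51.1 CPM in KO (-3.25 ± 0.05 SE as log2 fold change, adjusted p = 1.63e-09). Some features of the whole libraries separate the same samples as genotype. The 4 Y-linked genes Eif2s3y, Kdm5d, Uty and Ddx3y, all higher in KO, summed to 0 to 0.0795 CPM in WT and 149.9 to 163.2 CPM in KO, so genotype and this difference cannot be told apart. Of 8 smooth muscle markers 5 were higher and 2 lower in KO, with sums of 67.4 to 76.4 CPM in WT and 244.6 to 248.9 CPM in KO. Acta2, smooth muscle actin, carried most of the KO sum (16.4 CPM in WT, 161 CPM in KO, adjusted p = 6e-09), and Cnn1 was at 0.0212 CPM in WT and rose to 3.49 CPM in KO (adjusted p = 3.17e-05). Smtn carried most of the WT sum (47.8 CPM in WT, 58.1 CPM in KO). The 2 lower markers were Myocd (0.428 CPM in WT, 0 in KO, adjusted p = 0.00186) and Des (4.29 and 0.847 CPM, adjusted p = 0.0044). The defining marker Myh11 was at 0.466 CPM in WT against 0.219 CPM in KO and did not pass (adjusted p = 0.375). Of 8 fibroblast markers 7 were tested and 6 were higher in KO, with sums of 872 to 1022 CPM in WT and 7202 to 7705 CPM in KO, and Tcf21 at 0 in every library. Sums of 8 markers each were 77.0 to 84.8 CPM in WT and 9.87 to 13.4 CPM in KO for epithelium and mesothelium (2 higher and 2 lower of 4 tested, Epcam at 0), 1.58 to 2.24 and 10.7 to 11.1 CPM for bone and cartilage cells (2 higher and 1 lower of 4), and 3.37 to 3.70 and 1.58 to 1.93 CPM for endothelium (1 higher and 3 lower of 4). In bulk RNA, fewer cells of a type and less RNA per cell cannot be told apart, and the part of these marker differences in the results below was not tested.

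KO cells held more transcript of most of the expressed members and less of Timp3, the leading inhibitor of WT cells. Of the 46 genes, 22 were higher in KO, 3 were lower, 5 were tested without passing and 16 had too few counts to be tested. Among all 18732 genes tested, 69.3% were called, 35.1% higher and 34.2% lower, at an adjusted p under 0.05 (edgeR quasi-likelihood test, Benjamini-Hochberg over all genes tested). By family, 9 MMPs were higher and 2 lower, 11 ADAMTS were higher and 0 lower, and 2 TIMPs were higher and 1 lower. The 3 values of each genotype did not overlap in any of the 25 called members, with KO above WT in 22 and below it in 3, against 38.4% and 37.1% of all tested genes. A change of at least 4-fold was called upward in 18 members and downward in 3, against 11.7% and 9.74% of all tested genes. The median log2 fold change was 2.20 over the 30 tested members and 0.03 over all tested genes. Of the 30, 4 had 0 counts in every WT library and entered the test only through their KO values. All 4 are among the 22 called higher. With these at their lower bounds the median was again 2.20, but each bound lies above the median, so this could not move it. Members were selected by name, but tested members are not all members, so these counts describe the list and no test of it was made.

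**Figure D1:**
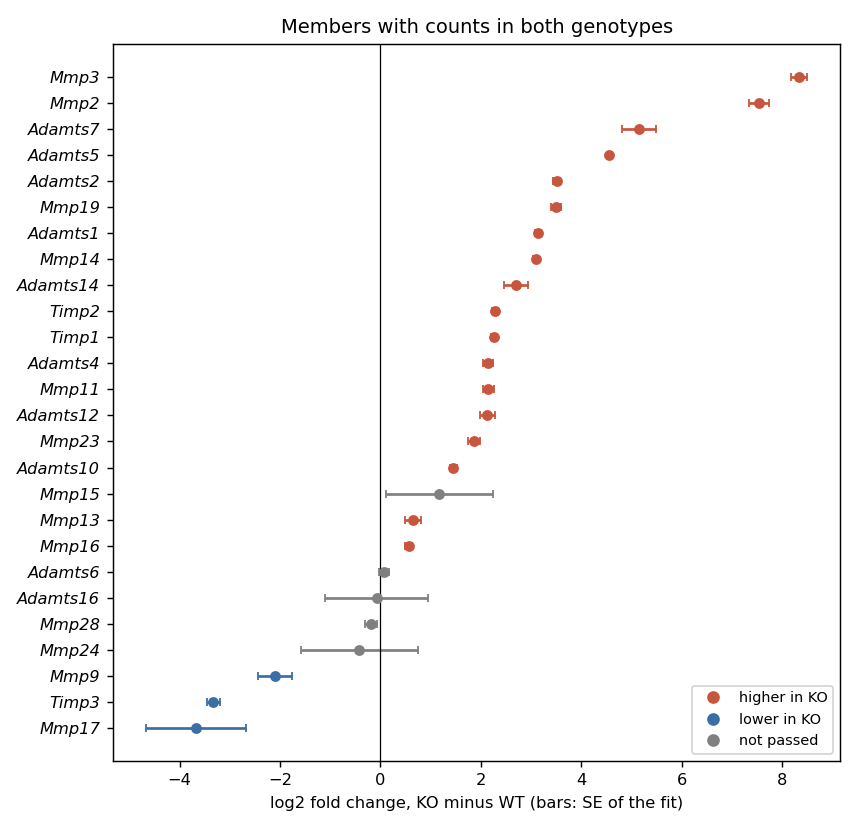
Log2 fold change of KO against WT (horizontal axis) for the 26 tested members that had counts in both genotypes, with the SE of the fit as bars and colour for the call at an adjusted p under 0.05. Mmp3 and Mmp2 lie farthest to the right, at 8.34 and 7.54. Mmp9, Timp3 and Mmp17, called lower, lie on the side of lower values in KO, as do Mmp24, Mmp28 and Adamts16, which did not pass.

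The gelatinases Mmp2 and Mmp9 digest denatured collagen and basement membrane collagen and are the MMPs most studied in the vessel wall. Mmp2 was at 8.57, 13.5 and 11.5 CPM in WT and at 2151, 2018 and 2080.3 CPM in KO. Every KO library lay far above every WT library, by 186.5-fold between the means (log2 fold change 7.54 ± 0.20 SE, adjusted p = 2.41e-07), and in KO it took 0.194% to 0.205% of all counts of a library. Mmp9 went the other way, from 2.93, 4.38 and 3.13 CPM in WT to 0.937, 0.9997 and 0.492 CPM in KO. It fell by 2.10 ± 0.33 (SE) on the log2 scale (adjusted p = 0.000547), at levels under 5 CPM in every library. Mmp9 is also a product of leukocytes. Of 10 macrophage and leukocyte markers 5 were tested, 3 higher and 2 lower in KO. Their sums were 74.8 to 85.8 CPM in WT and 74.7 to 90.2 CPM in KO, but the makeup of these sums differed. The 2 lower markers were Cd74 (56.8 CPM in WT, 2.39 CPM in KO) and Lyz2 (8.53 and 0.213 CPM). Of the 3 higher, Cd14 had the highest KO level (12.4 CPM in WT, 74.4 CPM in KO). The defining markers Ptprc, Adgre1 and Itgam were at 0 counts in all 6 libraries. The part of leukocyte transcripts in the Mmp9 difference was not tested.

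Membrane-type MMPs are anchored at the cell surface, and Mmp14, which cuts fibrillar collagen and activates the Mmp2 precursor with Timp2 as a bridge, led this class. Its level was 93.7, 101.1 and 91.4 CPM in WT and 823, 803 and 817 CPM in KO. The KO libraries lay within a narrow band above all WT libraries (8.54-fold, log2 fold change 3.09 ± 0.05 SE, adjusted p = 1.85e-09). Mmp16, another membrane-anchored activator of Mmp2, was at 25.4, 23.2 and 26.03 CPM in WT and 35.7, 37.6 and 36.7 CPM in KO. Its rise was small beside that of Mmp14, at 1.47-fold (log2 fold change 0.56 ± 0.08 SE, adjusted p = 0.000206). Mmp17, a membrane-type enzyme held by a lipid anchor, was at 1.36, 3.25 and 1.86 CPM in WT and at 0, 0.0727 and 0.424 CPM in KO. It was called lower (log2 fold change -3.68 ± 0.998 SE, adjusted p = 0.0133), and the size rests on KO replicate 3, since without that library the log2 fold change was -5.85. Mmp15 (0.132 CPM in WT against 0.298 CPM in KO) and Mmp24 (0.233 and 0.175 CPM) did not pass the test (adjusted p = 0.357 and 0.762), and Mmp25 had 9 counts in WT and 4 in KO altogether and was not tested. So the class held 2 higher, 1 lower and 2 undecided tested members.

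Stromelysins have broad specificity and activate other MMP precursors. Mmp3, or stromelysin 1, was at 0.634, 0.483 and 0.826 CPM in WT and at 228, 197 and 209 CPM in KO. From near absence in WT it became the fifth member by length-scaled level in KO, 324-fold above WT (log2 fold change 8.34 ± 0.16 SE, adjusted p = 6e-09). Mmp11, a furin-activated enzyme with weak activity on matrix proteins, was at 32.4, 41.9 and 32.1 CPM in WT and 156, 165 and 149 CPM in KO. This was a 4.41-fold rise (log2 fold change 2.14 ± 0.11 SE, adjusted p = 6.04e-07). Mmp10, a close relative of Mmp3, was listed at 0 counts in WT and at 0, 16 and 16 counts in KO and was not tested. How reads matching both of these similar genes were counted is not given in the sources used here.

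Collagenases, which open the triple helix of fibrillar collagen, were low or at 0. Mmp13, the main collagenase of rodents, was at 6.22, 8.33 and 8.49 CPM in WT and 10.6, 13.3 and 12.2 CPM in KO. The groups did not overlap, and the gene rose 1.56-fold (log2 fold change 0.65 ± 0.16 SE, adjusted p = 0.00617). Mmp8, the neutrophil collagenase, had 0 counts in WT and 8, 9 and 16 counts in KO. Mmp1a and Mmp1b, the rodent counterparts of human MMP1, had 0 counts in all 6 libraries. A count of 0 over a group allows up to 3 counts, which is 0.0161 CPM in WT against 0.0174 CPM in KO. Such limits cover counting error only.

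Among the remaining MMPs, 3 rose, of which Mmp27 entered the test only through its KO values. Mmp19, which is expressed in vascular and other tissues and cuts basement membrane proteins, was at 14.1, 18.05 and 14.8 CPM in WT and 183, 179.8 and 167 CPM in KO, an 11.3-fold rise (log2 fold change 3.50 ± 0.10 SE, adjusted p = 2.6e-08). Mmp23, an unusual member that lacks the common hemopexin domain, was at 4.498, 4.92 and 5.01 CPM in WT and 18.5, 15.2 and 18.8 CPM in KO. It too rose without overlap of the groups (3.64-fold, log2 fold change 1.86 ± 0.13 SE, adjusted p = 2.8e-06). Mmp28, epilysin, was at 21.3, 26.05 and 21.7 CPM in WT and 19.8, 18.4 and 22.3 CPM in KO. The groups overlapped and the gene did not pass (log2 fold change -0.19 ± 0.11 SE, adjusted p = 0.166), although with scaling by total counts it was called lower (log2 fold change -0.32, adjusted p = 0.0388). Mmp27 had 0 counts in WT and 1.98, 2.25 and 1.92 CPM in KO, which is at least 127-fold higher against the floor of 3 counts over the WT libraries (adjusted p = 2.09e-05). Mmp7, or matrilysin, and the tooth enamel protease Mmp20 had 0 counts in all libraries, the macrophage elastase Mmp12 had 8 counts, all in KO replicate 2, and Mmp21 had 18 counts in WT and 4 in KO.

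**Figure D2:**
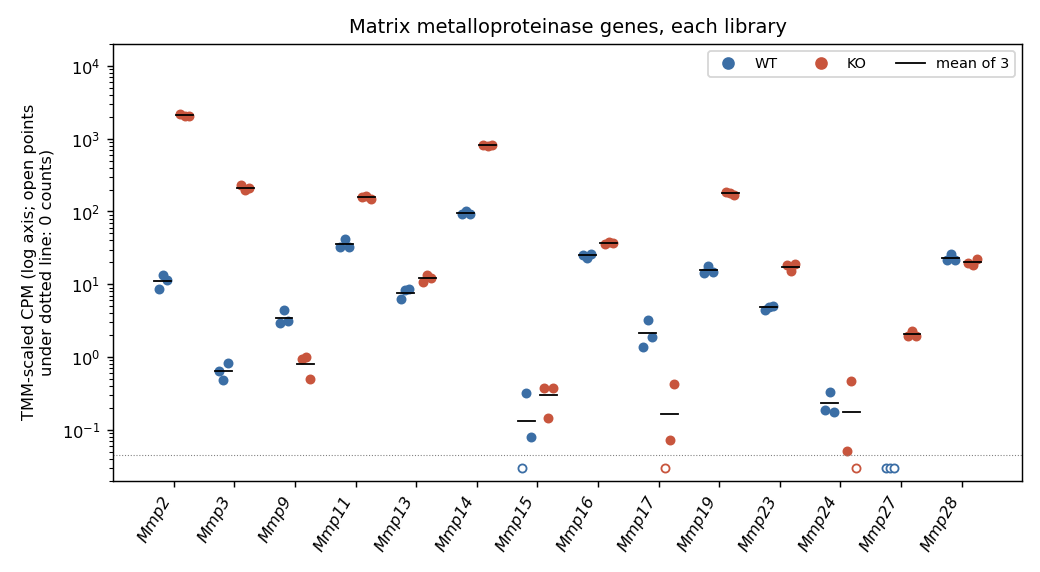
TMM-scaled CPM on a log axis for the 14 tested MMP genes, with 1 point per library (blue WT, red KO) and the mean of 3 as a line; open points under the dotted line mark 0 counts. Mmp2 lies between 8.57 and 13.5 CPM in WT and between 2018 and 2151 CPM in KO, whereas Mmp28 and Mmp24 overlap between genotypes.

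Position set 10 of the MMP genes apart. In the annotation the genes Mmp13, Mmp12, Mmp1b, Mmp3, Mmp1a, Mmp10, Mmp8, Mmp27, Mmp20 and Mmp7 follow each other in this order on chromosome 9. Of these 10, 4 had 0 counts in all libraries, 3 were tested and all 3 (Mmp13, Mmp3 and Mmp27) were higher in KO. Mmp27 had 0 counts in every WT library and entered the test only through its KO values. Of the 36 members elsewhere, 3 were at 0 in all libraries, 27 were tested, 19 were higher and 3 lower. Adamts3, Adamts9 and Adamts15, among those 27, also entered only through their KO values. Over all tested genes 35.1% were higher and 34.2% lower. Neighbouring genes of the cluster thus ranged in KO from 0 counts, in Mmp1a and Mmp1b, to 211 CPM in Mmp3, which lies between those genes. To show what these promoters share, the 100 bases before the RefSeq start are printed for 7 genes of the cluster, 3 that rose and 4 at or near 0, 5′ to 3′ on the gene's own strand. Capitals mark TGANTCA and TATAAA, the core of the TATA box, each searched on both strands. TGANTCA, with any base at N, is a loose pattern that takes in the core of the site bound by AP-1 (a dimer of Fos and Jun proteins).
Mmp13: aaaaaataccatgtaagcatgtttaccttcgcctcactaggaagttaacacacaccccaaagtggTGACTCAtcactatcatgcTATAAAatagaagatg
Mmp1b: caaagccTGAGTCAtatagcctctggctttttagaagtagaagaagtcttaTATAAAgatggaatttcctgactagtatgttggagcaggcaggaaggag
Mmp3: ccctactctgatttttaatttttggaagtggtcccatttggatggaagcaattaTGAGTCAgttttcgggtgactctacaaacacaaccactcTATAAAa
Mmp1a: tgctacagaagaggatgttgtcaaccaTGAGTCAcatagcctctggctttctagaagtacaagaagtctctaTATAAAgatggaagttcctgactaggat
Mmp10: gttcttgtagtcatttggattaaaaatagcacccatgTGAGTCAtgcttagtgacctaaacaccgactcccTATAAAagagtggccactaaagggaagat
Mmp27: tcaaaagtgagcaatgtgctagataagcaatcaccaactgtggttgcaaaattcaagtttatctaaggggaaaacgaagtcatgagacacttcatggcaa
Mmp20: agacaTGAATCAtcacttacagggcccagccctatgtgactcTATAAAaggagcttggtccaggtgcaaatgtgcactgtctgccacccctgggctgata

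These stretches come from RefSeq on build GRCm38.p6, which is not the build of the counts, at chr9:7272414-7272513 (plus strand) for Mmp13, chr9:7388027-7388126 (minus) for Mmp1b, chr9:7445722-7445821 (plus) for Mmp3, chr9:7464041-7464140 (plus) for Mmp1a, chr9:7502242-7502341 (plus) for Mmp10, chr9:7571296-7571395 (plus) for Mmp27 and chr9:7628131-7628230 (plus) for Mmp20. The letters TGANTCA began 46 bases before the start in Mmp3, 35 in Mmp13, 63 in Mmp10, 73 in Mmp1a, 93 in Mmp1b and 95 in Mmp20. Promoter windows were held for 32 members. None was held for Mmp2, Mmp9, Mmp16, Mmp17, Mmp19, Adamts4, Adamts5, Adamts6, Adamts7, Adamts8, Adamts10, Adamts15, Adamts16 and Adamts19, all outside the cluster. The counts below therefore do not cover these genes. Over the 250 bases before the start, 8 of the 10 cluster genes had TGANTCA and 7 had TATAAA in at least 1 window, and 0 had GGGCGG, the core bound by Sp1. Of the other 22 members with a window, 0 had TGANTCA, 2 had TATAAA and 16 had GGGCGG. Among all 32851 windows, 6.75% held TGANTCA, 12.4% TATAAA and 32.7% GGGCGG. Mmp3 and Mmp13, which rose, and Mmp1a, Mmp1b and Mmp20, which were at 0, all match both patterns. On the gene's own strand the base at N is G in Mmp3, Mmp1a and Mmp1b, C in Mmp13 and A in Mmp20. With G or C there the double-stranded site is the same, read from opposite strands, so only Mmp20 differs among these genes. Mmp27, which rose, has neither pattern in this window. A match is a description of sequence and says nothing of binding in these cells.

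**Figure D3:**
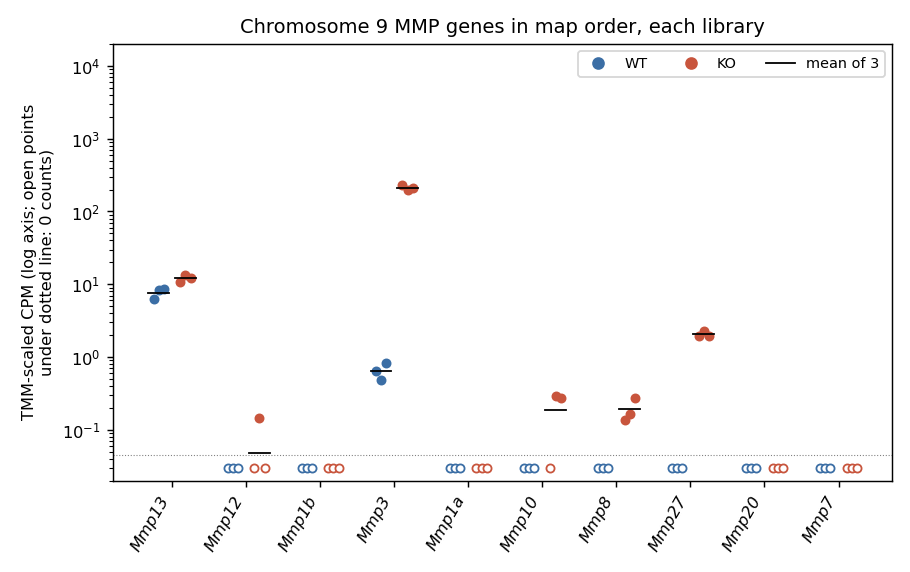
TMM-scaled CPM on a log axis for the 10 MMP genes of the chromosome 9 cluster in map order, 1 point per library (blue WT, red KO), with the mean of 3 as a line and 0 counts as open points under the dotted line. Mmp3 reaches 197 to 228 CPM in KO, while Mmp1b, Mmp1a, Mmp20 and Mmp7 have 0 counts in all 6 libraries.

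Of the 7 ADAMTS enzymes that cut the large proteoglycans aggrecan and versican, 5 were tested and all 5 were higher in KO, of which Adamts9 and Adamts15 entered the test only through their KO values. Adamts5, a strong aggrecanase, was at 17.3, 16.7 and 16.6 CPM in WT and 419, 389.9 and 387 CPM in KO. Both groups were narrow, and KO was 23.6-fold above WT (log2 fold change 4.56 ± 0.05 SE, adjusted p = 5.91e-10). Adamts1, which cuts versican and lies next to Adamts5 on chromosome 16, was at 29.4, 29.2 and 30.96 CPM in WT and 275, 259 and 254 CPM in KO. Both neighbours thus rose, Adamts1 by 8.795-fold (log2 fold change 3.14 ± 0.05 SE, adjusted p = 2.45e-09). Adamts4, another aggrecanase, was at 13.5, 15.5 and 12.9 CPM in WT and 62.5, 65.3 and 57.3 CPM in KO (4.42-fold, adjusted p = 2.15e-07). Adamts15 had 0 counts in all WT libraries and 55.96, 54.6 and 51.5 CPM in KO, which is at least 3350-fold higher against the floor of 3 counts over the group (adjusted p = 2.76e-08). Adamts9, a versicanase, likewise had 0 counts in WT and 15.2, 13.3 and 14.2 CPM in KO, which is at least 884-fold higher (adjusted p = 2.87e-07). Adamts8, the neighbour of Adamts15 on chromosome 9, had only 10 counts, all in KO, and Adamts20 had 0 counts in all libraries.

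Of the substrates of this class, Vcan, versican, was at 613, 490.3 and 551 CPM in WT and 671, 676 and 629 CPM in KO, a 1.195-fold difference (adjusted p = 0.0179). The values of the aggrecan gene Acan were 0.0444 CPM in WT and 0 in KO, and it was not tested. The 3 tested proteases of this class with counts in both genotypes (Adamts1, Adamts4 and Adamts5) differed by 4.42-fold or more, and versican transcript by less than 1.5-fold.

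All 3 ADAMTS enzymes that remove the amino-terminal propeptide of fibrillar procollagens rose, of which Adamts3 entered the test only through its KO values. Adamts2, the principal enzyme of the group, was at 26.7, 29.6 and 29.2 CPM in WT and 344, 318 and 312 CPM in KO (11.4-fold, log2 fold change 3.51 ± 0.06 SE, adjusted p = 2.96e-09). Adamts14 was at 4.15, 7.18 and 4.12 CPM in WT and 31.3, 37.6 and 31.5 CPM in KO (6.497-fold, log2 fold change 2.70 ± 0.23 SE, adjusted p = 2.1e-05). Replicate 2 of either genotype was the highest of its group for this gene. Adamts3 had 0 counts in all WT libraries and 17.3, 14.9 and 14.8 CPM in KO, which is at least 972-fold higher (adjusted p = 2.87e-07). WT cells therefore held counts of only Adamts2 and Adamts14 in this group. The substrate chain Col1a2 was 11.7-fold higher in KO (552 ± 24.8 CPM in WT, 6439 ± 234 CPM in KO, SD, n = 3, edgeR adjusted p = 1.17e-09), and Bmp1, the astacin protease that removes the propeptide at the other end, was 3.96-fold higher (adjusted p = 8.57e-08).

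Adamts7 and Adamts12 cut cartilage oligomeric matrix protein, and Adamts7 is known from genetic studies of coronary disease. Adamts7 was at 2.11, 2.30 and 4.69 CPM in WT and 114, 101.9 and 108 CPM in KO. WT replicate 3 stood above the other WT libraries but far below KO, and the difference was 35.5-fold (log2 fold change 5.15 ± 0.34 SE, adjusted p = 2.87e-05), with 5.62 on the log2 scale without that library. Adamts12 was at 6.15, 7.88 and 5.98 CPM in WT and 29.5, 32.2 and 25.9 CPM in KO (4.38-fold, adjusted p = 2.37e-06). The substrate gene Comp was at 0.089974 CPM in WT against 1.11 CPM in KO (adjusted p = 0.00567).

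Adamts6 and Adamts10, a pair of close relatives linked to fibrillin microfibrils, behaved unlike each other. Adamts10 was at 43.8, 50.01 and 49.7 CPM in WT and 133, 124 and 134 CPM in KO, a 2.73-fold rise (log2 fold change 1.45 ± 0.07 SE, adjusted p = 3.26e-07). Adamts6 was at 18.2, 18.3 and 22.1 CPM in WT and 21.1, 20.9 and 19.4 CPM in KO. Its groups overlapped, with a log2 fold change of 0.07 ± 0.10 (SE, adjusted p = 0.599) whose sign turned with scaling by total counts. The difference between these genes' changes was not tested. Their substrate gene Fbn1, fibrillin 1, was at 437 CPM in WT against 518 CPM in KO (adjusted p = 0.00168). Of the 5 remaining ADAMTS, Adamts16 was at 0.273 CPM in WT against 0.259 CPM in KO and did not pass (adjusted p = 0.95), Adamts13, which cuts von Willebrand factor, had 15 counts in WT and 14 in KO, Adamts19 had 5 counts in KO, and Adamts17 and Adamts18 had 0 counts in all libraries.

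**Figure D4:**
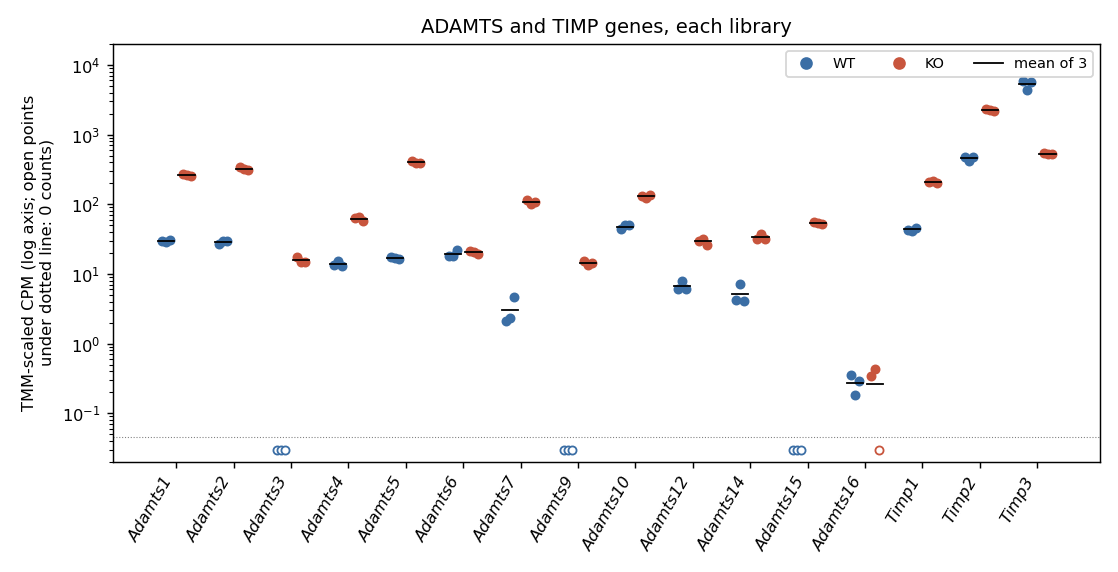
TMM-scaled CPM on a log axis for the 13 tested ADAMTS genes and the 3 tested TIMP genes, with 1 point per library (blue WT, red KO), the mean of 3 as a line and 0 counts as open points under the dotted line. Adamts3, Adamts9 and Adamts15 have 0 counts in all WT libraries, and Timp3 is the only one of these 16 genes whose KO points all lie below its WT points.

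The inhibitors split. Timp3, which is bound to the matrix and also inhibits ADAMTS and ADAM enzymes, was at 5979.9, 4364 and 5785 CPM in WT and 549, 528 and 527.5 CPM in KO. It took 0.463% to 0.62% of all counts of a library in WT, and it was 10.05-fold lower in KO (log2 fold change -3.33 ± 0.13 SE, adjusted p = 7e-07). WT replicate 2 was lowest of its group and still far above every KO library. Timp2, the inhibitor that also takes part in Mmp2 activation, was at 485, 422 and 477 CPM in WT and 2322, 2222.5 and 2216 CPM in KO (4.89-fold, log2 fold change 2.29 ± 0.06 SE, adjusted p = 1.39e-08). Timp1, the soluble inducible inhibitor, was at 43.0, 41.1 and 46.2 CPM in WT and 207, 213 and 202 CPM in KO. Its fold change of 4.77 (log2 fold change 2.25 ± 0.06 SE, adjusted p = 1.44e-08) was close to that of Timp2, and a difference between them was not tested. Timp4 had 0 counts in WT and 5, 17 and 0 counts in KO and was not tested.

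Levels of different genes were compared on the deposited FPKM, a length-scaled measure whose exact scaling is not given in the sources used here. FPKM did not keep a fixed proportion to CPM in every gene. Mmp9, for example, had 0.243 and 0.440 FPKM at 0.937 and 0.9997 CPM in KO replicates 1 and 2. The orders, sums and shares of FPKM carry this limit. In WT the order was Timp3 (1051 ± 159 FPKM, SD, n = 3), Timp2 (114 ± 6.98 FPKM), Timp1 (45.9 ± 2.45 FPKM) and Mmp14 (36.8 ± 2.57 FPKM), each clear of the next in every library. Adamts10 (16.5 FPKM) and Mmp11 (15.8 FPKM) followed and overlapped. In KO the order was Mmp2 (575 ± 15.2 FPKM), Timp2 (510.0 ± 11.8 FPKM), Mmp14 (273 ± 1.86 FPKM) and Timp1 (201 ± 5.88 FPKM), again each clear of the next. Mmp3 (98.3 FPKM) and Timp3 (95.9 FPKM) came after them and overlapped. A protease thus headed the KO order and an inhibitor the WT order, with Mmp2 moving from place 13 to 1 and Timp3 from 1 to 6.

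Summed over the family, MMP transcripts were at 83.98 ± 7.8 FPKM in WT and 1088 ± 22.1 FPKM in KO (SD, n = 3). The ADAMTS sum was 36.3 ± 3.33 FPKM in WT and 212.9 ± 7.15 FPKM in KO, and the TIMP sum 1211 ± 167 FPKM in WT and 807 ± 14.6 FPKM in KO. The ratio of the MMP sum to the TIMP sum was 0.0605 to 0.0913 in the WT libraries and 1.32 to 1.37 in the KO libraries. Without Mmp2 among the MMPs it was 0.0584 to 0.0873 in WT and 0.629 to 0.645 in KO, and without Timp3 among the TIMPs 0.476 to 0.621 in WT and 1.497 to 1.56 in KO. The genotypes did not overlap in any of these ratios, which are of transcripts and not of enzyme activity. With 3 libraries against 3 no exact permutation test can go below 0.10, and none was made.

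The makeup of each family also differed. Mmp14 held 43.9% of the MMP sum in WT and 25.1% in KO, and Mmp2 3.99% in WT and 52.8% in KO. Adamts10 went from 45.4% of the ADAMTS sum in WT to 17.4% in KO, while Adamts5 went from 3.96% to 14.5% and Adamts7 from 2.31% to 10.04%. Timp3 made up 86.7% of the TIMP sum in WT and 11.9% in KO, and Timp2 9.47% and 63.2%. In each family the member with the largest share in WT had a smaller share in KO.

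**Figure D5:**
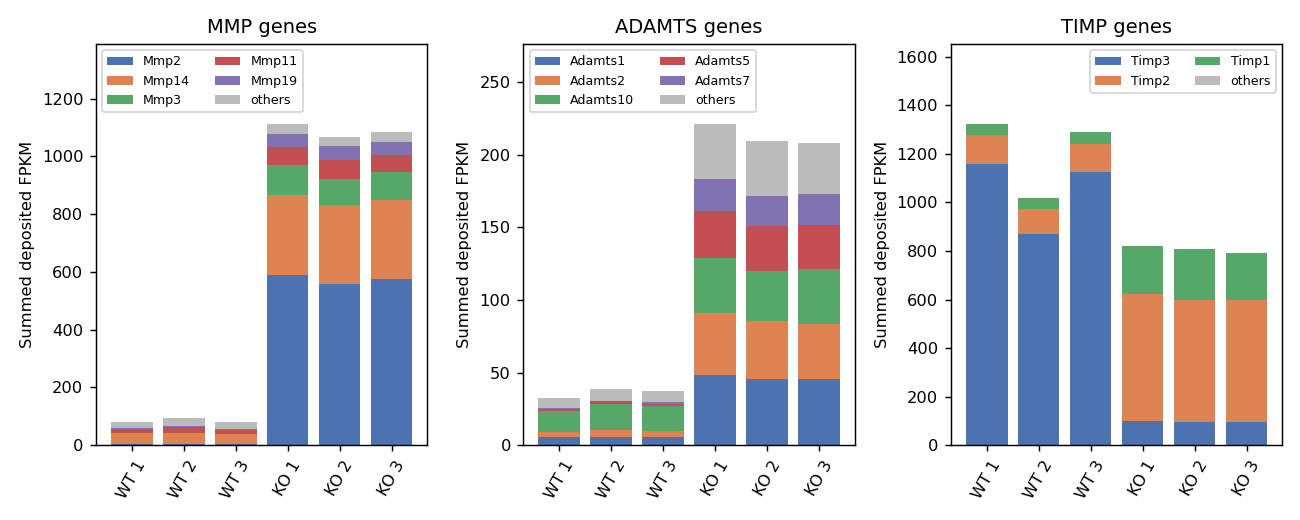
Deposited FPKM summed over the MMP, ADAMTS and TIMP genes of each library, stacked by the leading genes with the others in grey; the vertical axes differ between panels. The KO libraries reach 1067 to 1111 FPKM for the MMPs against 78.9 to 92.97 FPKM in WT, and the TIMP sum changes from mostly Timp3 to mostly Timp2.

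Related genes from lists drawn up beside the families gave mixed counts, against 35.1% higher and 34.2% lower over all tested genes. Of 7 listed ADAMTS-like proteins, which share the domains of ADAMTS enzymes without the protease, 5 were tested, 2 higher and 2 lower. Adamtsl3 was at 120.9, 124 and 128 CPM in WT and 1.35, 0.782 and 0.695 CPM in KO, a 131-fold fall (adjusted p = 1.35e-07), while Adamtsl4 rose 4.26-fold (adjusted p = 1.49e-06). Of 12 membrane ADAMs, the shedding enzymes, 11 were tested, 6 higher and 3 lower, with Adam12 rising from 0.918 to 49.97 CPM and Adam15 falling from 197 to 117 CPM. Of 5 astacin proteases 2 were tested and both were higher. Of 7 genes that encode cathepsins or their inhibitor Cst3, 6 were tested and all 6 were higher, among them Ctsb, a lysosomal protease (464 CPM in WT against 1347 CPM in KO).

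Proteins that activate or restrain these enzymes went both ways, as did all tested genes (35.1% higher and 34.2% lower). Of 10 genes of the plasmin system, the proprotein convertases and the membrane serine proteases Hpn and Prss8, 7 were tested, 4 higher (Hpn among them) and 2 lower. Furin, which activates Mmp11 and Mmp14 inside the cell, rose 1.7-fold (94.2 CPM in WT against 160.1 CPM in KO, adjusted p = 0.000262), and Plat, the tissue plasminogen activator, rose from 54.7 to 129 CPM. Plau, the urokinase, fell from 22.5 to 11.6 CPM, its receptor Plaur fell from 58.1 to 31.8 CPM, and plasminogen itself, Plg, had 0 counts in all libraries. Of 14 other inhibitors, clearance receptors and modulators 10 were tested and 6 were higher. Reck, a membrane inhibitor of MMPs, rose from 19.7 to 37.2 CPM (adjusted p = 4.83e-05). Lrp1, the receptor that takes up MMPs, ADAMTS enzymes and Timp3 from the cell surface, rose from 1072 to 5328 CPM (adjusted p = 6e-09).

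Among matrix substrates, 17 of 20 were tested, 14 higher and 1 lower, the last being the basement membrane chain Col4a2 (189.5 CPM in WT against 163 CPM in KO, adjusted p = 0.0125). Of 14 AP-1, ETS and Runx factors, all tested, 6 were higher and 3 lower. These shares of 42.9% and 21.4% stand beside 35.1% and 34.2% of all tested genes. The AP-1 subunit Fosl1 fell from 93.1 to 12.3 CPM (adjusted p = 1.54e-06), the ETS factor Etv1 rose from 8.77 to 88.997 CPM (adjusted p = 6.35e-09), and Fosl2, named after its values were seen, rose from 86.95 to 388 CPM. Jun was at 114 CPM in WT against 108 CPM in KO and did not pass (adjusted p = 0.222). Of 14 inducing cytokines and receptors 10 were tested, 6 higher and 1 lower. The oncostatin M receptor gene Osmr rose 9.84-fold, Tgfb1 fell from 68.1 to 45.95 CPM, and the cytokine genes Tnf and Osm had 0 counts in all libraries.

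Some members overlap other genes on the opposite strand, and without the strand setting of the counting their reads cannot be told apart. Timp3 overlaps Syn3, which had 379 counts in WT and 148 in KO against 1003417 and 92407 for Timp3. Timp1 overlaps Syn1 (3.22 CPM in WT against 3.48 CPM in KO). Larger partners were Tbc1d2b for Adamts7 (53.5 CPM in WT against 151 CPM in KO) and Tmem198b for Mmp19 (21.3 and 52.9 CPM), which were higher in KO like the members themselves, and Chchd10 for Mmp11 (12.8 and 1.81 CPM), which was lower. Cep295nl, on the same strand as Timp2, was at 1.28 CPM in WT against 9.93 CPM in KO.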

How the data were processed

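The authors deposited 1 table with raw counts and FPKM for each Ensembl gene and library, per the file headers. The submitters' processing notes name build GRCm39 and the tools CASAVA 1.8, HISAT2, SAMtools 1.3.1 and edgeR. They give no role for them, and the sources used here name neither the counting program, its strand setting and annotation nor the scaling of the FPKM. Symbols were found by Ensembl ID in GENCODE M21 (build GRCm38) for 55394 of 56393 genes (98.23%), and that annotation also gave gene order and overlaps.

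Samples were grouped by genotype from their titles. After filterByExpr, 18732 genes entered a quasi-likelihood fit with robust dispersion (edgeR 4.0.16, R 4.3.3) on TMM-scaled counts. Genotype was the only term, and genes with a Benjamini-Hochberg adjusted p under 0.05 over all genes tested were called. CPM are counts over TMM-scaled totals. FPKM were used to set levels of different genes side by side. Alternatives were DESeq2 1.42.0, limma 3.58.1 (voom, and log2(FPKM + 0.1)), other scalings and filters, a replicate block and the omission of single libraries. The fit was tested on simulated data with 50 genes changed at each of several sizes. It recovered 34% of the 1.5-fold, 76% of the 2-fold, 94% of the 4-fold and 92% of the 8-fold changes. The changed genes were drawn from those above a minimum mean CPM in WT, so these rates do not cover members below that level. There were 15 false calls over 18732 genes. Far fewer genes were changed in the simulation than were called in the data.

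Replicates of a genotype were distinct libraries, with counts differing beyond sampling noise (chi-square 23 to 35.8 per degree of freedom). The floor of 3 counts over a group covers counting error only, since PCR duplicates are not independent molecules.

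The members and gene lists were chosen with earlier results of these data known. Each member is accounted for, and values in every library are given for the 24 members with at least 5 CPM in the higher group. From each list the gene with the smallest adjusted p per direction at that level is named, beside direct activators, inhibitors and substrates. Some results on genes outside the 3 families are not reported here.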

Additional observations from a re-analysis of the deposited data

How the results depend on the processing

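All 25 called members kept their direction and their call in the 14 alternatives run, with a largest adjusted p of 0.049, for Mmp17. The number of members higher in KO ranged from 22 to 24 and the number lower from 3 to 4, and leaving out each library gave 22 to 23 and 3. The log2 fold change of Nono ranged from -3.28 to -3.22 when a library was left out. Genes at 0 in WT have a fitted fold change that depends on the method: Adamts15 was at 14.66 in edgeR, 12.71 in limma-voom and 6.36 on log2(FPKM + 0.1). Signs turned only in members that did not pass. Scaling by total counts put Adamts6 at -0.064, and the FPKM put it at -0.055. Adamts16 was at 0.14 without WT replicate 1 and 0.51 without KO replicate 3, within a range of -0.67 to 0.51 over the libraries left out. Mmp24 was at 0.014 without KO replicate 1 and 0.16 without KO replicate 3, within a range of -3.08 to 0.16. The cause was not tested. Scaling by total counts moved the median log2 fold change of all tested genes from 0.03 to -0.10.

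The titles give both genotypes the replicate numbers 1 to 3. Deviations of same-numbered libraries from their group means correlated across genes at -0.067, -0.02 and -0.035, so the numbers were not taken to pair the samples. With the replicate block 22 members were higher and 3 lower, and Nono was at -3.25 on the log2 scale; over all genes the block gave 6214 higher and 6019 lower.

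Depth limits the 16 untested members, whose largest total over the 6 libraries was 33 counts.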
